A study of Mus musculus with 49 samples.

Results

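The genes described here code for the ligands and receptors that steer growing axons: the ephrins and their Eph receptors, the semaphorins with the plexins and neuropilins that bind them, the Slits and their Robo receptors, and the netrins with Dcc and the Unc5 receptors. They were chosen by symbol, as all protein-coding rows of the count table that belong to these families, which gave 70 genes of 52550 rows (21950 of them protein-coding). These were 14 Eph receptors, 8 ephrins, 20 semaphorins, 9 plexins, 2 neuropilins, 3 Slits, 4 Robos, 5 netrins and netrin-Gs, and 5 genes of the Unc5 and Dcc group. A further 3 rows, antisense transcripts of Plxna4, carry a matching symbol but are not protein-coding and were left out.

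Guidance cues act at the growth cone, the motile tip of an axon. Ephrins are anchored in the membrane and repel or hold axons on contact with cells that carry them, and Eph receptors signal in both directions. Secreted semaphorins bind neuropilins, which pass the signal to plexins, while most membrane-bound semaphorins bind plexins directly. At the ventral midline of the neural tube the floor plate releases netrin-1, which attracts commissural axons through Dcc, and Slits, which repel them through Robo1 and Robo2 once they have crossed. Several members have roles outside neurons, such as Ephb4, Sema3e, Plxnd1 and Robo4 in blood vessels and Epha2 in early embryonic cells and epithelia.

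RNA was measured in cultures of ES-D3, an established mouse embryonic stem cell line, in the neural embryonic stem cell test, which follows stem cells as they form neural tissue in a dish and is used to look for developmental neurotoxicity. The tested groups were cultures exposed to 2 µM fluoxetine, a serotonin reuptake inhibitor, and cultures exposed to 90 µM venlafaxine, a serotonin and noradrenaline reuptake inhibitor. Exposure began on day 3, after embryoid bodies had formed, and RNA was taken on day 7 or on day 13. Controls, called untreated here because no solvent is named, were taken on days 0, 7 and 13. Each of the 7 groups held 7 libraries of polyA RNA, where the labels speak of 8 samples a condition. All groups are of 1 cell line, and whether the libraries of a group came from separate differentiations is not stated, so p-values measure the spread between these libraries.

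Libraries held 14059811 to 29225775 counts, and group medians ran from 16733872 to 22017435. Of the marker lists, 6 pluripotency genes summed to 5107 to 5499 CPM (counts of a gene scaled to a library of the same size, so that libraries can be compared) in the day 0 libraries and to 33.2 to 72.7 CPM in the untreated day 7 libraries. The sum of 7 neuron genes was 256 to 267 CPM on day 0, 832 to 1170 CPM on day 7 and 3337 to 4408 CPM on day 13 in untreated libraries. On day 13 the fluoxetine libraries 5, 6 and 7 lay apart on the second principal component of the 2000 most variable genes (12.1 to 18.9, the other 18 libraries at most 9.6). This component held 16.7% of the variance. Fluoxetine library 5 lay 1.84 times as far from the median profile of its group as its group's median library, and libraries 6 and 7 lay 1.0 times as far. Untreated library 4 of day 13 lay 1.76 times as far from the median profile of its group as its group's median library. On the first component, which held 51% of the variance, it was at 16.7, and untreated libraries 2, 5 and 7 at -4.2 to 3.3. Untreated libraries 1, 6 and 8 lay on the other side, at -25.4, -18.2 and -17.3. The venlafaxine libraries were at 6.1 to 26.7, a range that holds untreated library 4. Results that rest on fluoxetine libraries 5 to 7 or on untreated library 4 are given with and without them. No fit left out untreated libraries 1, 6 and 8 together. In RNA from a whole culture, fewer cells of a type and less RNA per cell cannot be told apart.

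**Figure D1:**
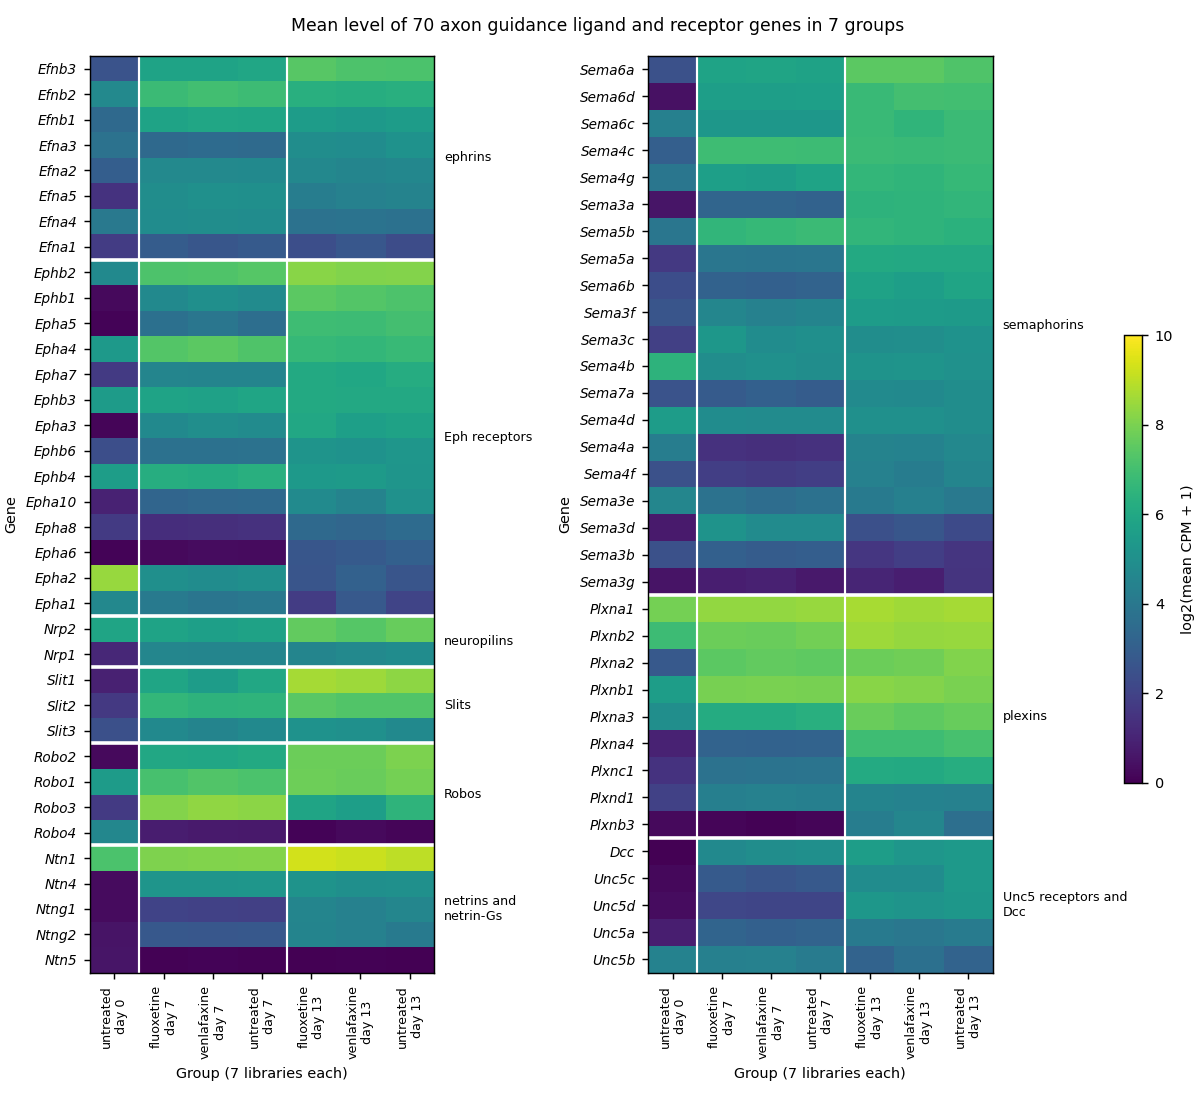
Mean level of each of the 70 genes (rows, by family) in the 7 groups of 7 libraries (columns), coloured by log2(mean CPM + 1). The columns of 1 day look alike, and the largest steps in colour lie between days: Epha2 is brightest on day 0, Robo3 on day 7, and Ntn1 and Slit1 on day 13.

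Summed over all families, the guidance genes were more abundant with each step of neural differentiation. On a length-corrected scale (CPM per kilobase of exon, the scale on which genes can be set beside each other), the 70 genes summed to 268 ± 8.54 on day 0, 540 ± 12.3 on day 7 and 806 ± 26.9 on day 13 in untreated cultures (SD, n = 7 each). A mean of at least 1 CPM was reached by 49 members on day 0, by 65 on day 7 and by 68 on day 13. Of the 69 members with enough counts to be tested, 55 were higher and 11 lower on day 7 than on day 0 (edgeR's quasi-likelihood test, adjusted p under 0.05, all genes of the table tested together). In the same comparison 88.8% of all 16969 tested genes were called: 45.3% of the tested genes were higher and 43.4% lower. The members' median log2 fold change was 2.43, beside 0.031 over all tested genes. Between day 7 and day 13 46 members rose and 17 fell, where 83% of all genes were called, 42.1% higher and 40.9% lower, and the median was 0.85 beside 0.007. Ntn5 was the member not tested, with at most 0.72 CPM in an untreated library.

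The drug groups stood close to untreated cultures of their own day. On day 7 the summed level was 521 ± 26.6 CPM per kilobase with fluoxetine and 532 ± 29.4 with venlafaxine, against 540 ± 12.3 in untreated cultures. On day 13 it was 850 ± 27.8 with fluoxetine and 797 ± 46.7 with venlafaxine, against 806 ± 26.9 in untreated cultures. In the plot of mean levels the columns of 1 day are close in colour, and those of different days are not.

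The promoters of 3 members with contrasting courses are shown because they stand for the patterns that the untreated course gave: Epha2 fell, Epha5 rose throughout, and Robo3 peaked on day 7. Each sequence runs 5′ to 3′ from 250 bases before the RefSeq start to 50 after it (build GRCm38.p6), with copies of GGGCGG, the GC box, or of its reverse complement CCGCCC in capitals. Copies may overlap.
Epha2, chr4:141300971-141301270, plus strand: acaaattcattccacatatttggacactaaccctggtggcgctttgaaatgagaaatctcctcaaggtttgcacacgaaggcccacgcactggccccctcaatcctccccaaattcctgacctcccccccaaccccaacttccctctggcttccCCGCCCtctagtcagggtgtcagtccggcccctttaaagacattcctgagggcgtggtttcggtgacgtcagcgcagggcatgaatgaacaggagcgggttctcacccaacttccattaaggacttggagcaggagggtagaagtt
Epha5, chr5:84417333-84417632, minus strand: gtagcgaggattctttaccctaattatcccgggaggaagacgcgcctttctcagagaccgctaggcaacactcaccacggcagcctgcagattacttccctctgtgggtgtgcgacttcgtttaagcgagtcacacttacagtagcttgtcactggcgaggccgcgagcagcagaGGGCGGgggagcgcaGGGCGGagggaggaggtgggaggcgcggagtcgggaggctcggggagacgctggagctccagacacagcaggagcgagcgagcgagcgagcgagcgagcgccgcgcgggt
Robo3, chr9:37433126-37433425, minus strand: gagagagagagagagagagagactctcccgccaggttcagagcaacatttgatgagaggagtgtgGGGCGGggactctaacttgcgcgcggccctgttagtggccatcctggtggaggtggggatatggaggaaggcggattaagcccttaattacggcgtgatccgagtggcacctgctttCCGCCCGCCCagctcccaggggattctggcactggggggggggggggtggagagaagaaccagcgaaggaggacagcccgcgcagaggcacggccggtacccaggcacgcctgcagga
GC boxes number 1 in the Epha2 window, 2 in the Epha5 window and 3 in the Robo3 window, and they lie in all 3 despite the opposite courses. RefSeq windows were at hand for 60 members (76 windows). Of these, 69.7% held GGGCGG on either strand, against 46.2% of 21263 windows of all protein-coding genes. The median GC content was 64% in the members' windows and 56.3% in all. The other motifs searched on both strands, CAGCTG and CATCTG, which are E-box forms, and TATAAA, the TATA box, were in 15.8%, 7.89% and 2.63% of the members' windows, against 15.6%, 14.6% and 12.6% of all windows. A match describes the letters only.

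Among the ephrins, the membrane-bound ligands of the Eph receptors, 7 of 8 rose between day 0 and day 7 and 1 fell. Between day 7 and day 13, 2 rose and 6 fell, the only family in which falls outnumbered rises at that step. Efnb3, a B-type ephrin of the ventral midline, had 4.45 to 6.12 CPM on day 0 (median 4.72), 57.7 to 62.9 CPM on day 7 (median 59.2) and 124 to 163 CPM on day 13 (median 136) in untreated cultures. Its log2 fold changes were 3.59 ± 0.0714 and 1.27 ± 0.0519, no library of 1 day overlapped another day, and on day 13 it was the most abundant ephrin at 44.9 ± 4.39 CPM per kilobase. Efna5, a repellent A-type ephrin of topographic maps, took the other course, with 1.37 to 2.21 CPM on day 0 (median 1.68), 26.5 to 33.2 CPM on day 7 (median 31.4) and 16.6 to 24.1 CPM on day 13 (median 20.5). Its lowest day 7 library lay above its highest library of either other day (4.16 ± 0.101, then -0.54 ± 0.0718). Efna4, which led the ephrins per kilobase on day 0 at 9.55, had 13.8 to 16.7 CPM on day 0 (median 15.6), 25.6 to 30.6 CPM on day 7 (median 29.8) and 10.1 to 13.8 CPM on day 13 (median 13.1). Its day 13 median was below its day 0 median, and the second step was -1.22 ± 0.0723. Efna1, also an A-type ephrin, had 2.08 to 2.87 CPM on day 0 (median 2.35), 5.17 to 8.13 CPM on day 7 (median 5.68) and 3.84 to 4.27 CPM on day 13 (median 3.97). It was lower at the second step, with a log2 fold change of -0.58 ± 0.0961. Efna3 moved the other way at each step: it had 11 to 14.9 CPM on day 0 (median 12.1), 7.71 to 12.1 CPM on day 7 (median 9.96) and 28.5 to 39.6 CPM on day 13 (median 35.3), with log2 fold changes of -0.33 ± 0.1 and 1.76 ± 0.0939. Efna1, Efna3 and Efna4 are neighbours on chromosome 3 (89271733 to 89338028 in GRCm38), and from day 7 to day 13 Efna1 and Efna4 fell while Efna3 rose.

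Among the 14 Eph receptors 11 rose and 3 fell at the first step, and 10 rose and 4 fell at the second. Epha2, a receptor of A-type ephrins, dominated the stem cells. It had 335 to 368 CPM on day 0 (median 351), 25.9 to 34.6 CPM on day 7 (median 31.2) and 2.14 to 9.18 CPM on day 13 (median 4.53). At 75.8 ± 2.74 CPM per kilobase it was the most abundant member of all families on day 0, and it fell at both steps (-3.53 ± 0.14 and -2.49 ± 0.171) with no overlap between days. Epha1 also fell at both steps, with 22.4 to 25.7 CPM on day 0 (median 24.6), 11.9 to 19.6 CPM on day 7 (median 14.3) and 1.9 to 7.33 CPM on day 13 (median 2.43). The highest day 13 value of Epha1 came from untreated library 4, and the next was 3.16 CPM. Of the receptors that rose, some were near 0 in stem cells. Epha3 had 0 to 0.194 CPM on day 0 (median 0.08), 12.8 to 37.1 CPM on day 7 (median 27.7) and 43.2 to 63.6 CPM on day 13 (median 53). Ephb1, a receptor of B-type ephrins that turns retinal axons away from the midline, had 0 to 0.345 CPM on day 0 (median 0.179), 22.9 to 28.9 CPM on day 7 (median 27.7) and 131 to 161 CPM on day 13 (median 144). Epha5, a receptor of A-type ephrins in forebrain maps, had 0 to 0.16 CPM on day 0 (median 0.0972), 8.94 to 13.9 CPM on day 7 (median 10.9) and 110 to 145 CPM on day 13 (median 125). In these 3 genes the day 0 libraries were at most 0.345 CPM, where a fitted fold change depends on the prior count, so only the second step is given: 0.96 ± 0.161 for Epha3, 2.42 ± 0.0563 for Ephb1 and 3.5 ± 0.0811 for Epha5. Epha6 came last. It had 0 to 0.153 CPM on day 0 (median 0.0631), 0.0863 to 0.382 CPM on day 7 (median 0.226) and 5.33 to 8.68 CPM on day 13 (median 7.89), and its day 13 libraries all lay above those of the earlier days. Per kilobase Epha4, which binds both ephrin types, led the family on day 7 at 18.6 ± 0.907, and Ephb2 led it on day 13 at 22.2 ± 1.03. The leading receptor of the family was thus another one on each day. Summed over the family, the level was 108 ± 3.49 CPM per kilobase on day 0, 82.2 ± 0.763 on day 7 and 115 ± 2.81 on day 13. The family as a whole was lower on day 7 than on either other day, with no overlap of libraries between days 0 and 7 or days 7 and 13.

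**Figure D2:**
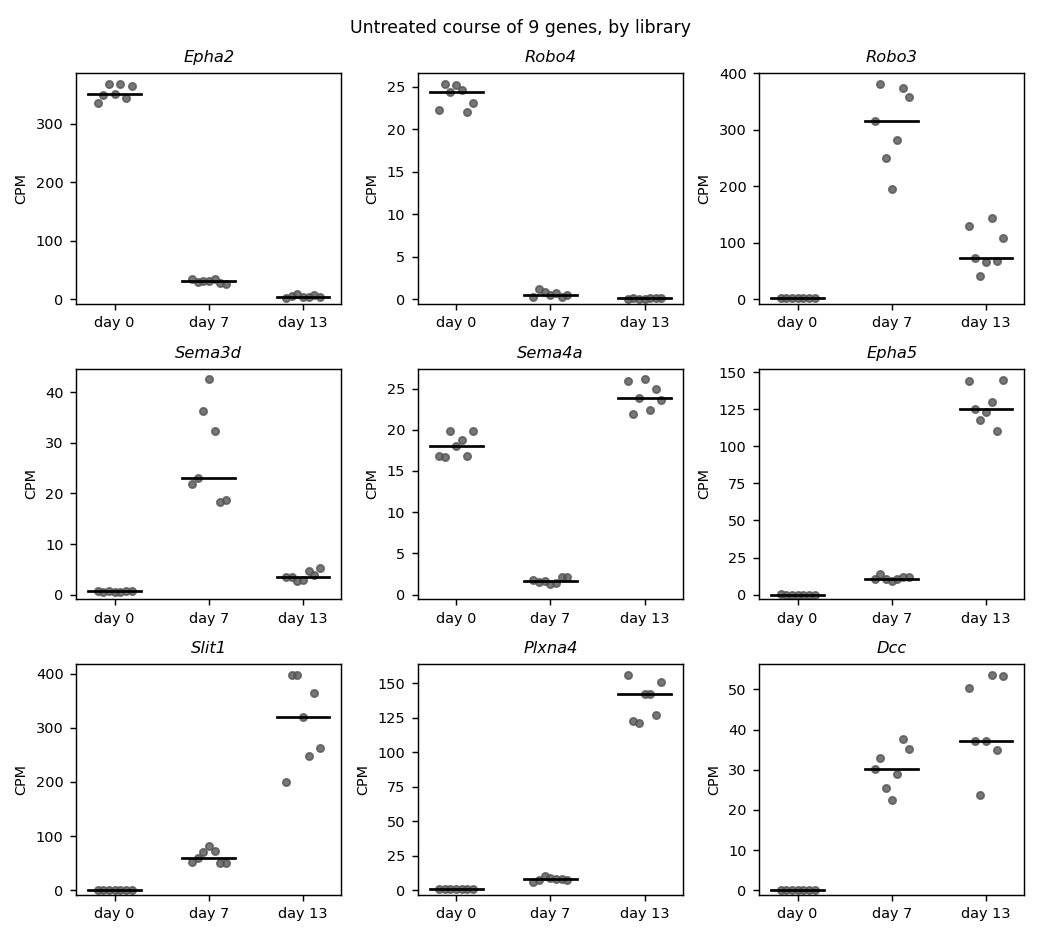
Level of 9 members (CPM, linear axes that differ between panels) in each of the 7 untreated libraries of days 0, 7 and 13, with a bar at the median. Epha2 and Robo4 are high on day 0, Robo3 and Sema3d on day 7, Sema4a on days 0 and 13, Epha5, Slit1 and Plxna4 on day 13, and Dcc on days 7 and 13.

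Of 20 semaphorins, secreted or membrane-bound ligands of plexins, 14 rose and 5 fell at the first step, and 14 rose and 3 fell at the second. Sema4b, a membrane-bound class 4 semaphorin, led the family in stem cells at 15.5 ± 0.912 CPM per kilobase and had 80.8 to 95.5 CPM on day 0 (median 88.6), 24.5 to 33.7 CPM on day 7 (median 29.1) and 30.5 to 33.7 CPM on day 13 (median 33.1). It fell at the first step (-1.58 ± 0.0525) and rose a little at the second (0.16 ± 0.0535). Sema4c, another class 4 member, replaced it as the leader at 25.3 ± 0.91 CPM per kilobase on day 7 and 24.4 ± 0.928 on day 13, after a rise of 4.04 ± 0.0587 at the first step. Sema4a had 16.6 to 19.9 CPM on day 0 (median 18.1), 1.34 to 2.12 CPM on day 7 (median 1.66) and 21.9 to 26.2 CPM on day 13 (median 23.9). It was thus low on day 7 only (-3.40 ± 0.0879 and 3.82 ± 0.0861), and the 3 days did not overlap. Sema6d, a transmembrane ligand of Plxna1, had 0.24 to 0.57 CPM on day 0 (median 0.389), 44.4 to 54.4 CPM on day 7 (median 48.2) and 115 to 133 CPM on day 13 (median 124). Its first step, 6.95 ± 0.0923, was the largest fold of the family at that step, from a day 0 level under 1 CPM.

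The secreted class 3 semaphorins did not move as a block. Sema3a, the classic repellent that collapses growth cones through neuropilin-1, had 0.189 to 0.778 CPM on day 0 (median 0.414), 6.95 to 9.31 CPM on day 7 (median 7.63) and 81.4 to 112 CPM on day 13 (median 95.3). It rose at both steps (4.01 ± 0.189 and 3.57 ± 0.0916), and the days did not overlap. Sema3d had 0.505 to 0.729 CPM on day 0 (median 0.684), 18.3 to 42.5 CPM on day 7 (median 23) and 2.72 to 5.23 CPM on day 13 (median 3.46), a peak on day 7 with log2 fold changes of 5.42 ± 0.259 and -2.84 ± 0.189. Sema3b, which acts through neuropilin-2, had 3.84 to 5.18 CPM on day 0 (median 4.73), 4.78 to 8.67 CPM on day 7 (median 6.83) and 1.03 to 2.61 CPM on day 13 (median 1.66). It was highest on day 7 and lowest on day 13 (-1.79 ± 0.154), although its day 0 and day 7 values overlapped. Sema3a, Sema3c, Sema3d and Sema3e lie on chromosome 5 between 12383385 and 17730268. On day 13 relative to day 7, Sema3a rose, Sema3d fell, Sema3e rose by 0.34 ± 0.0703 and Sema3c was at 0.12 ± 0.0947, which did not pass the test.

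The plexins, the signalling receptors of semaphorins, mostly rose: 8 of 9 rose at the first step and 7 at the second, and edgeR called none lower. Plxna1 led the family on day 0 and day 7, at 26.3 ± 0.722 and 38.6 ± 0.811 CPM per kilobase. Its libraries had 230 to 248 CPM on day 0 (median 240), 341 to 362 CPM on day 7 (median 347) and 373 to 408 CPM on day 13 (median 398), a small rise at each step (0.56 ± 0.0257 and 0.19 ± 0.0254). Plxnb2 passed it on day 13, at 45.7 ± 2.74 against 43.7 ± 1.35 CPM per kilobase, values whose spreads overlap. Plxna2, a receptor of Sema6a and of neuropilin complexes, had 5.28 to 6.98 CPM on day 0 (median 6.07), 168 to 193 CPM on day 7 (median 183) and 221 to 338 CPM on day 13 (median 267), with most of its rise at the first step (4.92 ± 0.103). Plxna4, which works with neuropilin-1 as a receptor of Sema3a, had 0.64 to 1.2 CPM on day 0 (median 0.921), 5.93 to 10.3 CPM on day 7 (median 8.06) and 121 to 156 CPM on day 13 (median 142). It rose at both steps, 3.08 ± 0.154 and then 4.11 ± 0.0829, and no days overlapped. Plxnb3, known from oligodendrocytes, had 0.0598 to 0.389 CPM on day 0 (median 0.189), 0 to 0.207 CPM on day 7 (median 0.0863) and 6.17 to 19.4 CPM on day 13 (median 9.68). All its day 13 libraries lay above 6 CPM and no earlier library reached 0.5 CPM. At these low levels its first step was -1.21 ± 0.794, adjusted p = 0.154, which DESeq2 called lower (-1.24, adjusted p = 0.0352). The sum of 6 oligodendrocyte lineage genes was 313 to 593 CPM in the same day 13 libraries, with 238 to 306 CPM on day 7. Between these days 5 of them rose and 1 fell. Pdgfra, the largest part of the day 7 sum, fell from a mean of 219 CPM to 160 CPM, and Sox10 rose from 1.28 CPM to 54.1 CPM. The part of these genes in the rise of Plxnb3 was not tested. Plxnb1, a receptor of Sema4d, had 42.2 to 49.9 CPM on day 0 (median 46), 237 to 262 CPM on day 7 (median 248) and 223 to 291 CPM on day 13 (median 265). Plxnd1, the receptor of Sema3e, had 2.32 to 3.45 CPM on day 0 (median 2.63), 17.2 to 21.3 CPM on day 7 (median 19.3) and 18.3 to 23.9 CPM on day 13 (median 19.5). Neither passed the test between day 7 and day 13, with 0.06 ± 0.0513 for Plxnb1 and 0.09 ± 0.0667 for Plxnd1.

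The neuropilins, co-receptors of secreted semaphorins, rose at different times. Nrp1 had 0.72 to 1.45 CPM on day 0 (median 1.23), 19.7 to 24.5 CPM on day 7 (median 22) and 22.6 to 37.3 CPM on day 13 (median 26.2) and rose mostly at the first step (4.20 ± 0.134). Nrp2 had 53.3 to 62 CPM on day 0 (median 56.2), 46.2 to 58.5 CPM on day 7 (median 54.6) and 156 to 243 CPM on day 13 (median 205), with -0.08 ± 0.0849 at the first step, which did not pass the test, and 1.92 ± 0.0829 at the second. Stem cells thus held Nrp2 with little Nrp1. On day 13 Nrp2 stood at 17 ± 2.58 and Nrp1 at 2.85 ± 0.508 CPM per kilobase, which did not overlap.

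All 3 Slits rose at the first step. Slit1 had 0.437 to 1.31 CPM on day 0 (median 0.844), 50.2 to 82.5 CPM on day 7 (median 60.3) and 200 to 398 CPM on day 13 (median 320). It went on rising (2.32 ± 0.151), and on day 13 it was the second most abundant member at 52.8 ± 13.2 CPM per kilobase. Slit2 had 1.79 to 2.69 CPM on day 0 (median 2.17), 75.4 to 110 CPM on day 7 (median 86.3) and 106 to 224 CPM on day 13 (median 154), with 0.79 ± 0.127 at the second step and an overlap between days 7 and 13. Slit3 had 3.76 to 5.25 CPM on day 0 (median 4.64), 20.9 to 33.7 CPM on day 7 (median 23.3) and 19.8 to 34 CPM on day 13 (median 25.1) and did not change detectably after day 7, at 0.02 ± 0.108; this value turned to -0.01 with no count filter and also without untreated library 4.

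The Robos, receptors of the Slits, parted company. Robo1 had 39.9 to 47.9 CPM on day 0 (median 43.4), 122 to 159 CPM on day 7 (median 144) and 191 to 285 CPM on day 13 (median 224), and Robo2 had 0 to 0.553 CPM on day 0 (median 0.153), 58.1 to 72 CPM on day 7 (median 65.8) and 199 to 320 CPM on day 13 (median 258). Both rose at the second step, by 0.74 ± 0.0768 and 1.98 ± 0.0981 on the log2 scale. Robo3, the divergent member that keeps axons from being repelled before they cross the midline, had 1.84 to 2.97 CPM on day 0 (median 2.21), 196 to 381 CPM on day 7 (median 316) and 41.7 to 144 CPM on day 13 (median 73). At 45 ± 10.2 CPM per kilobase on day 7 it was level with Ntn1 (45.1 ± 1.95), and these were the most abundant of all members on that day. At the second step it fell, with a log2 fold change of -1.77 ± 0.217, and its day 7 and day 13 values did not overlap. Robo4, the Robo of blood vessels and its neighbour on chromosome 9, had 22.1 to 25.3 CPM on day 0 (median 24.4), 0.239 to 1.17 CPM on day 7 (median 0.535) and 0 to 0.177 CPM on day 13 (median 0.136). Robo4 was thus measured mostly in stem cells here and was at most 0.177 CPM on day 13. The 7 endothelial markers summed to 92.7 to 103 CPM on day 0, 204 to 233 CPM on day 7 and 60.6 to 131 CPM on day 13. They did not move together: at the first step 4 rose and 3, Pecam1, Tek and Tie1, fell. Flt1, the largest part of the day 7 sum, averaged 4.93 CPM on day 0, 172 CPM on day 7 and 46.5 CPM on day 13, while Pecam1 averaged 68.6, 5.59 and 4.21 CPM. Their part in the fall of Robo4 was not tested.

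Ntn1, the netrin of the floor plate, had 126 to 153 CPM on day 0 (median 142), 272 to 302 CPM on day 7 (median 277) and 243 to 704 CPM on day 13 (median 528). It was the most abundant member per kilobase on day 13, at 80.8 ± 29.4, with log2 fold changes of 1.01 ± 0.178 and 0.85 ± 0.174. The range on day 13 was wide. The 3 untreated day 13 libraries with the least Ntn1 (numbers 1, 8 and 6, at 243, 344 and 388 CPM) were also those with the least Slit1 (200, 263 and 248 CPM) and the most Robo3 (129, 109 and 144 CPM). They also had the lowest sums of 5 floor plate markers, 288, 412 and 394 CPM, while the other 4 libraries held 623 to 769 CPM. This was noticed after the values were seen, and the part of floor plate cells in it was not tested.

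Ntn4, a netrin of basement membranes, had 0.0486 to 0.384 CPM on day 0 (median 0.252), 33.5 to 44.5 CPM on day 7 (median 36.7) and 26.8 to 36 CPM on day 13 (median 31.5). It was lower on day 13 than on day 7 by a small margin (-0.24 ± 0.0769), and those days overlapped. The netrin-Gs, membrane-anchored synaptic organisers that do not bind Dcc, rose at both steps. Ntng1 had 0.0972 to 0.379 CPM on day 0 (median 0.207), 2 to 4 CPM on day 7 (median 2.63) and 19.6 to 27.6 CPM on day 13 (median 22.5), and Ntng2 had 0.23 to 0.718 CPM on day 0 (median 0.437), 4.44 to 7.08 CPM on day 7 (median 5.73) and 14.4 to 18 CPM on day 13 (median 15.9). The log2 fold changes were 3.61 ± 0.23 and 3.10 ± 0.116 for Ntng1 and 3.66 ± 0.16 and 1.49 ± 0.0983 for Ntng2, with no overlap between days 7 and 13.

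Dcc, the netrin receptor for attraction, was at most 0.057 CPM in a day 0 library. It reached 22.4 to 37.6 CPM (median 30.1) on day 7 and 23.6 to 53.6 CPM (median 37.3) on day 13, and these days overlapped (0.45 ± 0.147). Of the Unc5 receptors, which turn the netrin response into repulsion, Unc5d had 0 to 0.553 CPM on day 0 (median 0.32), 2.56 to 4.73 CPM on day 7 (median 3.26) and 33 to 43.8 CPM on day 13 (median 38.6) and Unc5c had 0 to 0.307 CPM on day 0 (median 0.171), 4.12 to 7.51 CPM on day 7 (median 6.4) and 26 to 55.9 CPM on day 13 (median 37.8). Both rose at the second step, by 3.56 ± 0.127 and 2.78 ± 0.16. Unc5a had 0.614 to 1.17 CPM on day 0 (median 0.799), 6.37 to 10.3 CPM on day 7 (median 7.99) and 14.1 to 20.9 CPM on day 13 (median 17.2), a smaller rise in each step. Unc5b, which is also a receptor of blood vessels, had 20.1 to 21.3 CPM on day 0 (median 20.6), 12.5 to 20.9 CPM on day 7 (median 15.9) and 6.87 to 10.7 CPM on day 13 (median 8.25). It was the one member of this group that fell at both steps, with log2 fold changes of -0.27 ± 0.103 and -1.06 ± 0.107. The first of these calls was lost with no count filter (-0.19).

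Of 23 co-receptors, other ligands and adhesion partners, 23 rose at the first step and 0 fell, among them the repulsive guidance gene Rgma (6.38 ± 0.0999) and the adhesion gene Nrcam (6.20 ± 0.0739). At the second step 18 rose and 4 fell, with Dscam, another netrin receptor, at 5.54 ± 0.0724 and the axonal adhesion gene Cntn1 at 5.38 ± 0.0867. Of 62 intracellular effectors 47 rose and 12 fell at the first step, and 42 rose and 15 fell at the second. Among all tested genes 88.8% were called at the first step, 45.3% higher and 43.4% lower. The shares at the second step were 83%, with 42.1% higher and 40.9% lower. Srgap3, a partner of the Slit and Robo pathway, was at 5.23 ± 0.0539 and the collapsin response mediator Dpysl5 at 4.72 ± 0.0606 at the first step. Gap43, a growth cone protein, was at 2.30 ± 0.0435 and Anks1b at 4.69 ± 0.106 at the second.

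The first drug question was whether 4 days of exposure changed these families by day 7. With fluoxetine 0 of 67 tested members passed edgeR's quasi-likelihood test, where 0.0513% of all 15601 genes did, 0.032% higher and 0.0192% lower. In this comparison 7 members (10.4%) had an unadjusted p under 0.05, where 9.13% of all genes did. DESeq2 called 0 members as well, and 57 of all 15601 genes. Log2 fold changes ran from -0.23 to 0.36 with a median of -0.02. Of the semaphorins Sema3c, a secreted class 3 member, had 32.5 to 46.2 CPM (median 37.3) in fluoxetine libraries, against 20.8 to 38.1 CPM (median 29.7) in untreated libraries. These overlapped (0.34 ± 0.118, adjusted p = 0.378). Sema4g, a membrane-bound class 4 member, was at -0.15 ± 0.0498, adjusted p = 0.355.

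With venlafaxine 2 of 67 members passed on day 7, 1 higher and 1 lower, or 2.99%, where 3.84% of all genes were called, 1.9% higher and 1.94% lower. The share of members is close to that background. Epha4, the receptor of both ephrin types, had 170 to 189 CPM (median 183) in venlafaxine libraries, against 138 to 158 CPM (median 153) in untreated libraries. All venlafaxine libraries lay above all untreated ones (0.27 ± 0.0558, adjusted p = 0.00518). Fluoxetine libraries had 126 to 184 CPM (median 160), and the difference from the same untreated libraries was 0.10 ± 0.0557. Sema4g had 40.3 to 51.3 CPM (median 46.8) with venlafaxine, against 49.1 to 58.3 CPM (median 55.1) in untreated libraries. The ranges overlapped, but every venlafaxine library lay below the untreated median (-0.21 ± 0.0503, adjusted p = 0.0176). Slit1 had 30.2 to 57.9 CPM (median 45.4) with venlafaxine, against 50.2 to 82.5 CPM (median 60.3) in untreated libraries. This fell short of the test (-0.45 ± 0.137, adjusted p = 0.0702), as did Epha5 (0.31 ± 0.092, adjusted p = 0.0586). DESeq2 called both as well, 4 members in all, where it called 850 of all 15601 genes. Of the other genes of the pathway the adhesion gene Flrt1 (-0.58 ± 0.128), the transcription factor gene Nfatc4 (-0.44 ± 0.0907) and the actin-binding gene Ablim1 (-0.26 ± 0.0628) were lower with venlafaxine, the only called genes among the 23 co-receptors and 62 effectors tested. With fluoxetine none of them was called.

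The next question was whether 10 days of exposure changed them by day 13. With fluoxetine 2 of 68 tested members were higher and 0 were lower (2.94%), where 0.116% of all 16397 genes were called, 0.061% higher and 0.0549% lower. An unadjusted p under 0.05 was found for 24 members (35.3%) and for 14.1% of all genes. Ephb1, the B-type ephrin receptor, had 162 to 185 CPM (median 178) in fluoxetine libraries, against 131 to 161 CPM (median 144) in untreated libraries. The groups did not overlap (0.30 ± 0.0589, adjusted p = 0.0461). Ntng2, the netrin-G2 gene, had 19.7 to 25.5 CPM (median 21.7) in fluoxetine libraries, against 14.4 to 18 CPM (median 15.9) in untreated libraries, again with no overlap (0.48 ± 0.0956, adjusted p = 0.0491). Both calls ended without fluoxetine libraries 5 to 7: the differences were then 0.27 for Ephb1 and 0.41 for Ntng2 with an adjusted p of 0.891 each. In that comparison of 4 libraries with 7, 0 members were called, and 0 of all 16727 genes. Ephb1 was 175 to 185 CPM in those 3 libraries and 162 to 182 CPM in the other 4, and Ntng2 was 19.8 to 25.5 CPM and 19.7 to 22.5 CPM. Both sets lay above every untreated library. Ntng2 also missed the threshold without the farthest library of each group (adjusted p = 0.0502).

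**Figure D3:**
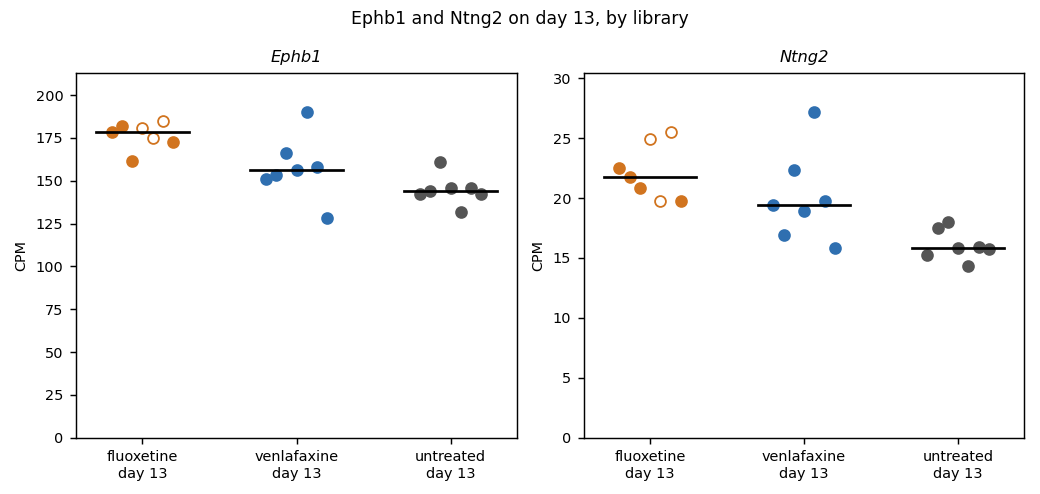
Level of Ephb1 and Ntng2 (CPM, axes from 0) in each day 13 library with fluoxetine, with venlafaxine and untreated, with a bar at the median. Open circles are fluoxetine libraries 5, 6 and 7, which lie apart on the second principal component. All fluoxetine libraries are above all untreated ones in both genes, and venlafaxine libraries overlap with both.

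Ntng2 shares 558 bases of exon on the same strand with the gene 6530402F18Rik, which was at 0.50 ± 0.107 with fluoxetine (adjusted p = 0.0526) and 0.41 ± 0.107 with venlafaxine (adjusted p = 0.0163) on day 13. The sources used here do not say how reads in the shared part were counted, so the pair may share reads. Ephb1 overlaps the antisense gene Gm26846 by 152 bases, and Gm26846 was at most 0.2 CPM in any library. Just outside the threshold was Sema6a, a transmembrane semaphorin that acts on Plxna2 and Plxna4. It had 166 to 191 CPM (median 181) in fluoxetine libraries, against 139 to 170 CPM (median 146) in untreated libraries (0.26 ± 0.0533, adjusted p = 0.0521). DESeq2 called it, and so did the fit without untreated library 4, in which 5 members and 284 of all 16460 genes were called. Sema6a was called in 6 of its 10 alternatives. Without fluoxetine libraries 5 to 7 it was at 0.23, adjusted p = 0.892. Its receptor gene Plxna2 was at -0.34 ± 0.0962, adjusted p = 0.104, and Plxnb1 at 0.23 ± 0.064, adjusted p = 0.0946. The Slits were above the untreated mean in the data, at 0.37 ± 0.147 for Slit1 and 0.36 ± 0.126 for Slit3, as was Ntn1 at 0.35 ± 0.202, and none passed the test (adjusted p = 0.23, 0.178 and 0.469). The sum of floor plate markers was 602 to 930 CPM in fluoxetine libraries, against 288 to 769 CPM in untreated ones. None of its 5 genes was called, and its part in these values was not tested. None of the 23 co-receptors and 62 effectors was called, where 0.116% of all genes were.

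With venlafaxine 22 of 68 members passed on day 13, 9 higher and 13 lower. This is 32.4%, where 22.9% of all 16397 genes were called. The share that was higher was 13.2% beside 11.6% of all genes, and the share that was lower 19.1% beside 11.3%. The median log2 fold change of the members was -0.07, beside -0.005 over all genes. Changes were small: apart from Sema3g, Plxnb3, Epha1 and Robo3, no called member had moved by more than 0.59 on the log2 scale. Receptors (4 higher, 7 lower of 33) and ligands (5 higher, 6 lower of 35) were both mixed.

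**Figure D4:**
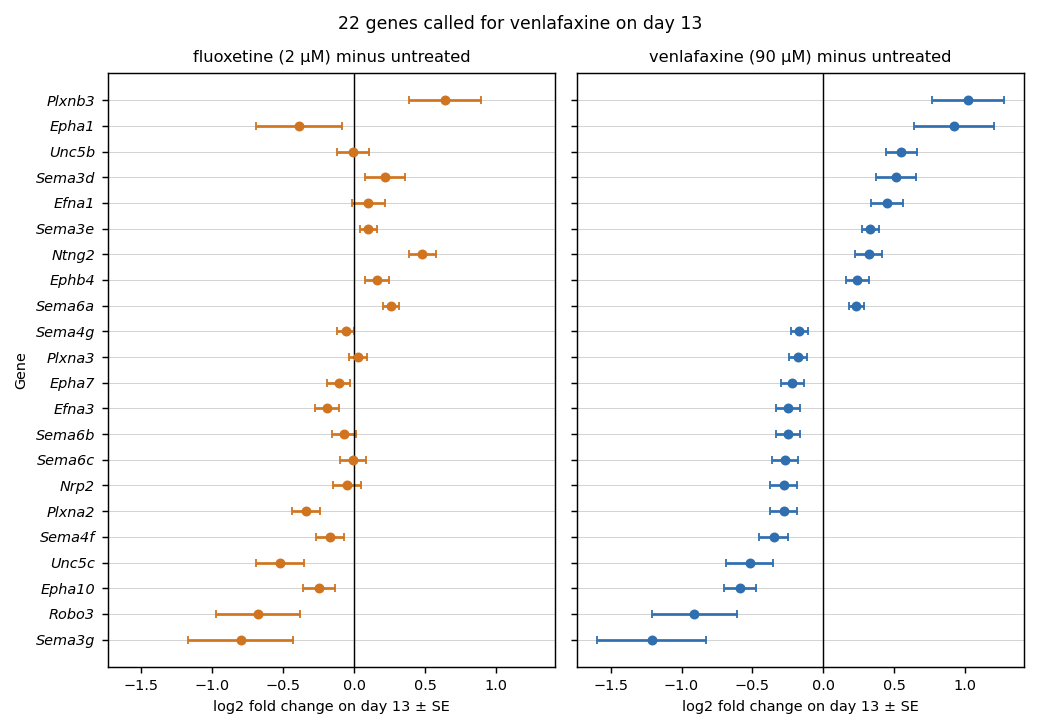
Log2 fold change on day 13 (x axis, with standard errors as bars) of the 22 members called for venlafaxine, sorted by the venlafaxine value. The left panel gives fluoxetine and the right panel venlafaxine, each relative to the same 7 untreated libraries, and the doses differ. Venlafaxine values run from -1.21 (Sema3g) to 1.02 (Plxnb3), and of these genes only Ntng2 was also called for fluoxetine.

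Of the Eph receptors 2 were higher and 2 lower with venlafaxine on day 13. Epha10, a receptor-like member without an active kinase, had 15.7 to 25.9 CPM (median 22.2) in venlafaxine libraries, against 25.5 to 39.5 CPM (median 31.6) in untreated libraries. Its ranges touched only at the ends (-0.59 ± 0.113, adjusted p = 0.00494). Epha7 was also lower (-0.22 ± 0.0803). Epha1 had 3.84 to 9.12 CPM (median 5.7) with venlafaxine, against 1.9 to 7.33 CPM (median 2.43) untreated. All venlafaxine libraries lay above the untreated median (0.92 ± 0.285, adjusted p = 0.0291). The high untreated value is that of library 4, and without it the difference was 1.31 ± 0.229 (adjusted p = 0.00141). With no count filter the call of Epha1 was lost (0.92, adjusted p = 0.0703). Ephb4, the venous receptor of Efnb2, was higher (0.24 ± 0.0832, adjusted p = 0.046), a call also lost with no count filter (adjusted p = 0.0805). Of the ephrins, Efna1 had 3.69 to 7.14 CPM (median 5.24) with venlafaxine, against 3.84 to 4.27 CPM (median 3.97) in untreated libraries. It was higher in 6 of 7 libraries than the untreated median (0.45 ± 0.113, adjusted p = 0.0141). Its chromosomal neighbour Efna3 was lower (-0.25 ± 0.0854).

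Of the semaphorins 3 were higher and 5 lower. Sema3e, a ligand of Plxnd1, had 17.4 to 20.9 CPM (median 19.6) with venlafaxine, against 14.2 to 16.1 CPM (median 15.7) in untreated libraries. The groups did not overlap, and it had the smallest p of all members in this comparison (0.33 ± 0.0594, adjusted p = 0.00428). Its receptor gene Plxnd1 was at 0.05 ± 0.0972 and was not called. Sema3d had 4.45 to 6.43 CPM (median 5.54) with venlafaxine, against 2.72 to 5.23 CPM (median 3.46) in untreated libraries. It was higher, with some overlap (0.51 ± 0.14, adjusted p = 0.0196). Sema6a had 152 to 197 CPM (median 182) with venlafaxine, against 139 to 170 CPM (median 146) in untreated libraries, all above the untreated median (0.23 ± 0.0533, adjusted p = 0.0111). Sema4f, a membrane-bound class 4 member, had 13.4 to 22.3 CPM (median 18.3) with venlafaxine, against 20 to 27.8 CPM (median 21.5) in untreated libraries. It was lower with some overlap (-0.35 ± 0.102, adjusted p = 0.0236), and so were Sema6c (-0.27 ± 0.0906), Sema6b (-0.25 ± 0.0861) and Sema4g (-0.17 ± 0.0603, adjusted p = 0.0487). Sema4g was close to the threshold and was called in 3 of its 9 alternatives, with an adjusted p of 0.0155 to 0.0901. Sema3g had 0.304 to 1.41 CPM (median 0.714) with venlafaxine, against 0.378 to 3.12 CPM (median 2.03) in untreated libraries. It had the largest fall of the members (-1.21 ± 0.383, adjusted p = 0.0314), at a level near 1 CPM, and the groups overlapped.

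Of the plexins 1 was higher and 2 were lower. Plxnb3 had 14.3 to 37.3 CPM (median 23.9) with venlafaxine, against 6.17 to 19.4 CPM (median 9.68) in untreated libraries. All venlafaxine libraries lay above the untreated median, though the ranges overlapped (1.02 ± 0.253, adjusted p = 0.014). Fluoxetine libraries had 14.3 to 25.6 CPM (median 15.4), which did not pass the test (0.64 ± 0.254, adjusted p = 0.236). Plxna2 (-0.28 ± 0.0961) and Plxna3 (-0.18 ± 0.063), which form receptors with neuropilins, were lower, as was Nrp2 (-0.28 ± 0.0968). Nrp1 was at -0.15 ± 0.103 and was not called.

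Of the 3 tested Robos only Robo3 passed. It had 19.4 to 67.7 CPM (median 48) with venlafaxine, against 41.7 to 144 CPM (median 73) in untreated libraries. The 3 highest untreated values were those of libraries 1, 6 and 8, the ones low in Ntn1 and floor plate markers, and the floor plate sum was 477 to 986 CPM with venlafaxine, against 288 to 769 CPM in untreated libraries. Its part in the lower Robo3 (-0.91 ± 0.298, adjusted p = 0.0364) was not tested. Robo2 (-0.27 ± 0.107, adjusted p = 0.0703) and Robo1 (-0.18 ± 0.0821, adjusted p = 0.106) were called without untreated library 4, at -0.32 and -0.23. No Slit was called: Slit1 was at 0.27 ± 0.147 and Slit3 at 0.28 ± 0.126. Of the netrin group, Ntng2 had 15.9 to 27.2 CPM (median 19.4) with venlafaxine, against 14.4 to 18 CPM (median 15.9) in untreated libraries. It was higher (0.32 ± 0.0958, adjusted p = 0.0246), with the shared exon named above. Ntn1 was at 0.22 ± 0.202 and was not called. The Unc5 receptors split. Unc5b had 9.79 to 14.3 CPM (median 11.9) with venlafaxine, against 6.87 to 10.7 CPM (median 8.25) in untreated libraries. All venlafaxine libraries were above the untreated median (0.55 ± 0.11, adjusted p = 0.00611). Unc5c had 22.1 to 35.9 CPM (median 28.3) with venlafaxine, against 26 to 55.9 CPM (median 37.8) in untreated libraries, all below the untreated median (-0.52 ± 0.168, adjusted p = 0.0334). The call of Unc5c was lost with no count filter (adjusted p = 0.0866).

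The number of calls depended on the fit. In the fit used above 3753 of all 16397 genes were called. With venlafaxine and untreated libraries alone 12 members were called, 9 higher and 3 lower, and 2301 of all 16154 genes. With no count filter 9 members were called, 7 higher and 2 lower, and 2022 of all 33155 genes. Without untreated library 4 there were 30 calls, 12 higher and 18 lower, where 5382 of all 16460 genes were called. That library lay among the venlafaxine libraries on the first component (16.7, beside 6.1 to 26.7). It was left out after the data were seen, so this fit is no independent check of the calls. The calls of Robo3, Sema3g, Plxna2 and Nrp2 were among those lost both with no filter and with the compared groups alone. Those of Epha1, Ephb4 and Unc5c were lost with no filter but kept with the compared groups alone. After these values were seen, the untreated libraries 1, 6 and 8 were looked up in all called members. They were chosen as the highest in Robo3 and were also the lowest untreated libraries on the first component. In 10 of the 13 members called lower all 3 of them lay above the other 4 untreated libraries. Robo3, by which they were chosen, is among the 10. How many of all genes split in this way was not counted. The members had also been called by these same untreated values, so the count shows nothing particular to them. Unc5c, for example, was 47.5 to 55.9 CPM in these libraries and 26.0 to 37.8 CPM in the other 4, and Plxna2 was 314 to 338 CPM and 221 to 267 CPM. Nrp2 was 217 to 243 CPM and 156 to 205 CPM, and Sema3g was 2.44 to 3.12 CPM and 0.378 to 2.03 CPM. Efna3, Sema4f and Sema6b, which were also called lower, overlapped between these libraries. In 4 of the 9 members called higher, Epha1, Ntng2, Plxnb3 and Sema6a, the same 3 libraries lay below the other 4. That count has the same limit. The part of these libraries in the calls was not tested.

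Markers of other cell types moved in the same comparison, in which 22.9% of all 16397 genes were called, 11.6% higher and 11.3% lower. Of 7 neuron genes 6 were lower with venlafaxine on day 13, and their sum was 2639 to 3718 CPM, against 3337 to 4408 CPM in untreated libraries. Of 6 oligodendrocyte lineage genes 5 were higher, with Mbp at 0.79 ± 0.211, and their sum was 510 to 833 CPM, against 313 to 593 CPM. Of 5 astrocyte genes 4 were higher and 1, Gfap, lower, with sums of 466 to 622 CPM against 394 to 504 CPM. Of 6 tested endothelial genes 3 were higher, among them Tek at 0.85 ± 0.187, with sums of 89.5 to 151 CPM against 60.6 to 131 CPM, and Tie1 was under 0.5 CPM in all day 13 groups. Of 6 pluripotency genes none was called, with sums of 134 to 243 CPM against 80.9 to 223 CPM, and Pou5f1 had a median of 36.9 CPM against 18.5 CPM, with overlap. Epha1, high in stem cells, was among the members called higher. Epha2, the most abundant member in stem cells, was not called (mean 1.61 CPM per kilobase with venlafaxine, against 1.13 untreated). Of the shorter lists, 2 of 4 tested endoderm genes and the 1 tested microglia gene were higher, 1 of 5 neural crest and Schwann genes was higher and 2 lower, and 1 of 6 neural progenitor genes was higher and 1 lower. None of 5 mesenchyme and 5 floor plate genes was called. Their part in the members' changes was not tested.

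Of the 62 intracellular effectors 3 were higher and 19 lower with venlafaxine on day 13, with a median of -0.07 beside -0.005 over all genes. Of all 16397 genes 22.9% were called, 11.6% higher and 11.3% lower. Lower were Chn1 (-0.27 ± 0.0572), a Rac regulator that acts below Epha4, and the growth cone gene Gap43 (-0.27 ± 0.0611). Higher were Dock1 (0.41 ± 0.0902), a Rac activator, and Mical1 (0.27 ± 0.0631), an enzyme that acts on actin below plexins. Of the 23 co-receptors, other ligands and adhesion partners, 1 was higher and 3 lower. These were the receptor phosphatase gene Ptprz1 (0.38 ± 0.115), the repulsive guidance gene Rgmb (-0.44 ± 0.0978), the axonal adhesion gene Cntn2 (-0.76 ± 0.214) and Lrig2 (-0.22 ± 0.0643).

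Whether a drug's difference from untreated cultures changed between the 2 days was tested as a contrast of its own. For venlafaxine 9 of 69 members passed, 6 with a more positive value on day 13 and 3 with a more negative one. This is 13%, where 12.4% of all 16964 genes were called, 7.53% more positive and 4.89% more negative, so the share is close to the background. In each of the 9 the difference had one sign on day 7 and the other on day 13, and most of the single-day values missed the test.

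**Figure D5:**
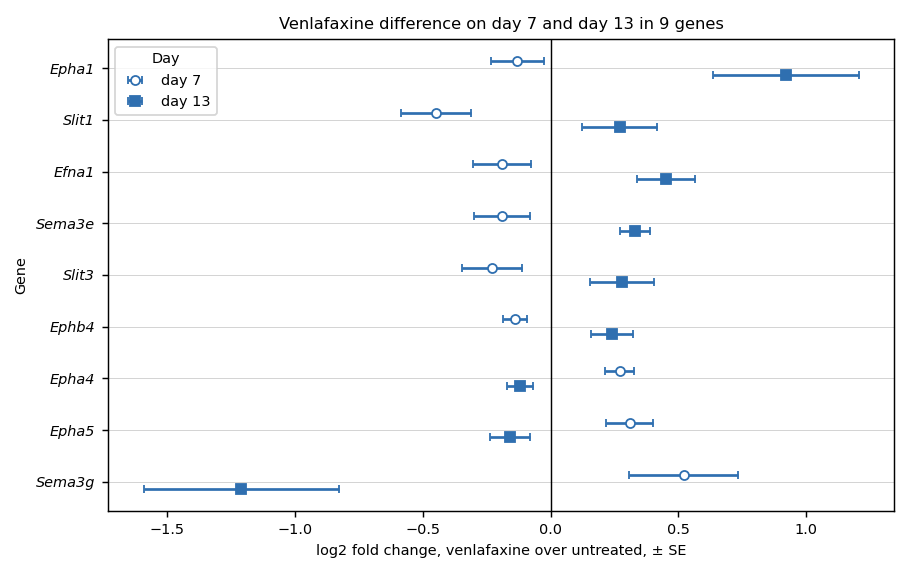
Log2 fold change of venlafaxine over untreated libraries of the same day, with standard errors, on day 7 (open circles) and day 13 (squares) for the 9 members whose difference changed between days. In the upper 6 genes day 7 is below 0 and day 13 above it, and in Epha4, Epha5 and Sema3g the order is turned round.

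Epha4 had 89.5 to 106 CPM (median 97.6) with venlafaxine on day 13, against 93.4 to 121 CPM (median 108) in untreated libraries. It was called higher on day 7 and stood at -0.12 ± 0.0491 on day 13, not called, and the contrast was -0.38 ± 0.0782, adjusted p = 0.00171. Epha5 had 10.9 to 16.5 CPM (median 14.7) with venlafaxine on day 7, against 8.94 to 13.9 CPM (median 10.9) untreated. On day 13 it had 94.4 to 134 CPM (median 114), against 110 to 145 CPM (median 125) untreated, and the contrast was -0.47 ± 0.128, adjusted p = 0.0147. Both receptors were above untreated levels on day 7 and below them on day 13 by their means. Sema3g had 0.578 to 1.13 CPM (median 0.872) with venlafaxine on day 7, against 0.375 to 1.1 CPM (median 0.614) untreated. With the day 13 values above, its contrast was -1.72 ± 0.466, adjusted p = 0.0135, again at levels near 1 CPM.

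The other 6 went the other way. Slit1 had 301 to 483 CPM (median 349) with venlafaxine on day 13, against 200 to 398 CPM (median 320) untreated, and a contrast of 0.73 ± 0.207, adjusted p = 0.0192. Slit3 had 15.5 to 27.1 CPM (median 22.2) with venlafaxine on day 7, against 20.9 to 33.7 CPM (median 23.3) untreated. On day 13 it had 25.3 to 37 CPM (median 32.1), against 19.8 to 34 CPM (median 25.1) untreated, and the contrast was 0.51 ± 0.177, adjusted p = 0.0499. Groups overlapped on both days in both Slits. Without the library of each group farthest from its group's median profile, both missed the threshold (adjusted p = 0.0551 for Slit1 and 0.179 for Slit3), as did Epha5 (adjusted p = 0.0681). Slit3 was called in 4 of its 8 alternatives, with an adjusted p of 0.0285 to 0.179.

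Efna1 had 4.87 to 5.81 CPM (median 5.34) with venlafaxine on day 7, against 5.17 to 8.13 CPM (median 5.68) untreated, and a contrast of 0.64 ± 0.161, adjusted p = 0.00837. Sema3e had 8.11 to 14 CPM (median 10.5) with venlafaxine on day 7, against 8.98 to 14.6 CPM (median 12.8) untreated, and a contrast of 0.52 ± 0.126, adjusted p = 0.00677. In both genes the day 7 groups overlapped. Ephb4 had 62.5 to 77.4 CPM (median 71.9) with venlafaxine on day 7, against 71.1 to 86.8 CPM (median 78.1) untreated. On day 13 it had 39 to 50 CPM (median 42), against 31.9 to 42.7 CPM (median 35.5) untreated, with a contrast of 0.38 ± 0.096, adjusted p = 0.00847. Epha1 had 11.1 to 15.8 CPM (median 13.1) with venlafaxine on day 7, against 11.9 to 19.6 CPM (median 14.3) untreated, and a contrast of 1.04 ± 0.294, adjusted p = 0.0176. These 4 genes had day 7 values a little below untreated, none of which passed the test. Of the 62 effectors 8 had a more positive value on day 13 and 2 a more negative one. Of the 23 co-receptors and partners these were 1 and 3. In this contrast 7.53% of all genes were more positive and 4.89% more negative.

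For fluoxetine 0 of 69 members passed edgeR's test of the change between days, where 0.277% of all genes were called, 0.212% higher and 0.0648% lower. An unadjusted p under 0.05 was found for 18 members (26.1%) and for 13.0% of all genes. DESeq2 called 4 members and 181 of all 16964 genes. Nearest were Ephb1 (0.40 ± 0.101, adjusted p = 0.0628) and Sema3c (-0.50 ± 0.129, adjusted p = 0.0661). Ephb1 was called in 2 of its 9 alternatives, with an adjusted p of 0.0291 to 0.443. For Sema3c it was 3 of 9, with 0.0223 to 0.48. Without untreated library 4 of day 13, 5 members were called, and 218 of all 17018 genes. With no count filter 4 of all 35147 genes were called, and without fluoxetine libraries 5 to 7 it was 1 of 17292. Of the other genes of the pathway, Rgma was called at 0.46 ± 0.104, adjusted p = 0.0438, in the fit used above. Its values under other fits are not given here.

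Both drugs were compared with the same 7 untreated libraries on day 13, at doses that differ, and the following values stand side by side for that reason only. Ntng2 was at 0.48 ± 0.0956 with fluoxetine and 0.32 ± 0.0958 with venlafaxine, and Sema6a at 0.26 ± 0.0533 and 0.23 ± 0.0533. Ephb1 was at 0.30 ± 0.0589 and 0.13 ± 0.059. Robo3 was at -0.68 ± 0.296 and -0.91 ± 0.298, and Unc5c at -0.52 ± 0.169 and -0.52 ± 0.168. Epha1 was at -0.39 ± 0.301 with fluoxetine and 0.92 ± 0.285 with venlafaxine. Since 2 µM and 90 µM are not matched doses, no difference between the drugs was tested.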

How the data were processed

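The 49 libraries were made from polyA RNA with the Illumina TruSeq stranded kit, per the labels' protocols. The authors deposited raw counts per gene, with 1 column for each library. The submitters' processing notes name STAR 2.6.0b, featureCounts 1.6.1, bcl2fastq 2.19.0.316 and FastQC 0.11.5, and the build GRCm38.p6. Which annotation release and strand setting were used, and what was done with reads of several genes, the sources used here do not say, so overlapping genes may share reads. Exons of 4 members overlap another gene on the same strand, and those of 14 one on the opposite strand.

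Differences were tested over all genes with edgeR 4.0.16 under R 4.3.3: TMM scaling, filterByExpr, the robust quasi-likelihood F test and Benjamini-Hochberg adjustment, with calls at an adjusted p under 0.05. Drug comparisons shared 1 fit per day with its 3 groups, the course used the 3 untreated groups, and changes between days used the 42 libraries of days 7 and 13. Each standard error is the size of the log2 fold change over the square root of F. CPM are counts scaled by library total and TMM over all 49 libraries, and CPM per kilobase use union exon lengths from GENCODE vM21. Fits were checked on simulated counts. Totals of 14059811 to 29225775 counts limit precision for genes under 1 CPM. Alternatives were DESeq2 1.42.0, its size factors, other count filters, other sets of libraries and a replicate block. Members and gene lists were chosen with earlier results of these data known. Values by library are given for members called for a drug (up to 12 with the smallest p), for the extremes of the untreated course in each family, and for some members that missed the threshold, which were chosen after their values were seen.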

Additional observations from a re-analysis of the deposited data

Results flagged for a closer look

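The difference between venlafaxine and untreated cultures changed between day 7 and day 13 in 9 members by edgeR's quasi-likelihood test of that change, each with opposite signs on the 2 days. The change, on the log2 scale, was 1.04 ± 0.294 for Epha1, -0.38 ± 0.0782 for Epha4, -0.47 ± 0.128 for Epha5, 0.38 ± 0.096 for Ephb4 and 0.73 ± 0.207 for Slit1. It was 0.51 ± 0.177 for Slit3, 0.64 ± 0.161 for Efna1, 0.52 ± 0.126 for Sema3e and -1.72 ± 0.466 for Sema3g. Slit3 was closest to the threshold (adjusted p = 0.0499) and was called in 4 of its 8 alternatives. In the same comparison, the sum of floor plate markers was 83 to 121 CPM with venlafaxine on day 7, against 91.8 to 162 CPM untreated, and 477 to 986 CPM on day 13, against 288 to 769 CPM. Its part in the change of the Slits was not tested.

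Single libraries lay far from the other 6 of their group in 21 of 447 gene and group pairs (Dixon's test). Chance flags about 1 in 20, and the flags fall in 15 libraries. With fluoxetine on day 7 these were Efna3 (11.8 CPM) and Sema6a (44.9 CPM) in library 8, Ephb1 in library 2 (18.5 CPM), Sema4d in library 4 (34.5 CPM) and Unc5d in library 5 (4.08 CPM). With venlafaxine on day 7 it was Unc5a in library 6 (9.57 CPM). With fluoxetine on day 13 these were Sema4d in library 1 (35.7 CPM), Unc5d in library 2 (44.9 CPM) and Sema3d in library 6 (6.07 CPM), and with venlafaxine on day 13 it was Efnb3 in library 5 (189 CPM). Among untreated libraries of day 0 these were Epha4 (44.7 CPM) and Sema6a (5.93 CPM) in library 6 and Ephb6 in library 5 (3.05 CPM). On day 7 they were Ephb1 (22.9 CPM), Ephb3 (66.6 CPM) and Plxnc1 (15.5 CPM) in library 5, Ntng1 in library 4 (4.0 CPM) and Plxna3 in library 1 (67.2 CPM). On day 13 they were Epha1 (7.33 CPM), Plxnd1 (23.9 CPM) and Unc5b (10.7 CPM), all in library 4, the untreated library farthest from its group's median profile.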

How the results depend on the processing

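Over the members named, 1585 values under an alternative kept their direction and their side of the threshold, 61 lost a call, 38 gained one and 2 changed sign. Counts of called members changed by over 1.5 times as follows. For venlafaxine on day 7 (2 called, and 599 of all 15601 genes), DESeq2 called 4, and 850 of all 15601 genes. For fluoxetine on day 13 (2 called), DESeq2 called 6, a fit of all 49 libraries 7, a fit without untreated library 4 called 5 and fits without fluoxetine libraries 5 to 7 or with the replicate block called 0. Over all genes DESeq2 called 423 of 16397, the fit of all 49 libraries 575 of 17543 and that without untreated library 4 called 284 of 16460. The other fits called 0 genes, and the fit used above 19 of 16397. For venlafaxine on day 13 (22 called), no count filter left 9, the compared groups alone left 12 and the replicate block left 4, the fewest. In that order these fits called 2022 of 33155, 2301 of 16154 and 282 of 16397 genes, and the fit used above 3753 of 16397. For the change between days, fluoxetine (0 called) had 4 with DESeq2, 1 with all 49 libraries and 5 without untreated library 4, and venlafaxine (9 called) had 14 without untreated library 4. Over all genes, fluoxetine had 47 of 16964, then 181 of 16964, 83 of 17543 and 218 of 17018 in the same order. Venlafaxine had 2107 of 16964, then 3187 of 17018. The signs that changed were those of Slit3 between days 7 and 13 in untreated cultures, 0.02 against -0.01 both with no count filter and without untreated library 4. The causes were not tested. The fit without untreated library 4 was chosen after seeing the data.

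Library numbers recur across groups without a stated meaning. Deviations of same-numbered libraries from their groups had a median r of -0.0091 on day 7, -0.081 on day 13 and -0.0195 over the untreated course. Single pairs on day 13 ran from -0.464 to 0.242, and 3 of 19 were over 0.1. A median over pairs cannot exclude that some same-numbered libraries were handled together. With the replicate block, the adjusted p was 0.114 for Ephb1 and 0.102 for Ntng2 with fluoxetine on day 13 and 0.0722 for the change of Slit3 between days with venlafaxine, and Plxnb3 was called lower at the first untreated step (-1.3, adjusted p = 0.0229). Depth limits members under 1 CPM, such as Sema3g with venlafaxine, Ntn5 and, on day 0, Dcc.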
